A study of Mus musculus with 48 samples.

Results

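Ubiquitin is made as a precursor protein, for example from Ubb, a polyubiquitin gene, and from Rps27a, in which a single ubiquitin is joined to a ribosomal protein. The 3 genes followed here are Ubb, Rps27a and Gm1821, a gene annotated as a processed pseudogene of Ubb, and they are 3 of the 51789 gene rows of the deposited count table. They were chosen because Ubb counts were low and Gm1821 counts were present in macrophage libraries of p53 knockout mice. Values that compare knockout with wild-type libraries are therefore given as a description, with no test.

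The libraries came from 8 mouse macrophage populations, each kept for 4 h with 10 µM AP-3-84, a compound the labels do not describe, or with its DMSO vehicle, with 3 libraries in each of 16 groups. Ascites cells were F4/80-positive cells washed from the peritoneum 45 days after injection of ID8 ovarian tumour cells, in hosts whose genotype is given as B6(Cg)-Tyrc-2J/J. Thio cells were F4/80-positive peritoneal cells of B6 mice taken 4 days after 1 ml of 3% thioglycolate, an irritant that recruits macrophages. The other cells were grown from bone marrow of wild-type B6 (WT) or p53 KO B6 (KO) mice for 6 days in M-CSF at 10 ng/mL, the growth factor that turns marrow progenitors into macrophages. They are M0 when not polarized, M1 after 24 h with LPS at 100 ng/mL and IFN-γ at 50 ng/mL, and M2 after 24 h with IL-4 at 10 ng/mL plus IL-13 at 10 ng/mL. Titles, descriptions and the series design separate WT from KO, whereas in the genotype field all libraries grown from marrow are wild-type. The grouping follows the former. No label names the removed part of Trp53, or says whether replicates came from separate cultures or animals, so p-values measure the spread between libraries, which may be technical.

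Ubiquitin is a small protein that is joined to other proteins to mark them for the proteasome, for sorting or for signalling. Cells keep a pool of it by cutting precursors apart: a polyubiquitin gene codes for ubiquitin units joined head to tail, while the product of Rps27a also supplies a protein of the small ribosomal subunit. Ubb is known as a precursor gene whose transcription answers to stress, and macrophages use ubiquitin chains in signalling from Toll-like and cytokine receptors.

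Because reads of these libraries are 75 bases long and mark transcript 3′ ends, the gene that receives a read depends on how the ends of similar transcripts differ. In GENCODE M21 (mouse build GRCm38), Ubb lies at chr11:62551171-62553213 on the plus strand and Gm1821 at chr14:46084028-46085000 on the plus strand, annotated as a transcribed processed pseudogene. A search of all annotated transcripts for stretches of 75 bases found in Ubb or Gm1821 gave 1 further gene, Gm8797, at chr3:5750806-5751295 on the plus strand, annotated as protein coding. By the start motif of a unit, the Ubb transcript holds 4 ubiquitin units, the Gm1821 transcript 2 and the Gm8797 transcript 1. The last unit is shown because it is the coding sequence nearest to the 3′ end. Capitals in Ubb mark bases at which either other gene differs, and capitals in Gm1821 and Gm8797 mark their differences from Ubb.
Ubb: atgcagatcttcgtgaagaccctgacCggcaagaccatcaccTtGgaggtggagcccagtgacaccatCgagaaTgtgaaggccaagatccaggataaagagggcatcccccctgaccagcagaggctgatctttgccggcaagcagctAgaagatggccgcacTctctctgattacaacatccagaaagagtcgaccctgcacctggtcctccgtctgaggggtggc
Gm1821: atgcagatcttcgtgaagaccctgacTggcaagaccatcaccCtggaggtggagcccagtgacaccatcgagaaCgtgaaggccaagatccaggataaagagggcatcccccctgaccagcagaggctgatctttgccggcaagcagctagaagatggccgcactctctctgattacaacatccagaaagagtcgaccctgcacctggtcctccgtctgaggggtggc
Gm8797: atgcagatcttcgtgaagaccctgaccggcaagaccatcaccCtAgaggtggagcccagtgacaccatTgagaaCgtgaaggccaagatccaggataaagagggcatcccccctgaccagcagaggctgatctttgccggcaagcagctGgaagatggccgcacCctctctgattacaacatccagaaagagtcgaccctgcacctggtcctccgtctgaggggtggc

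Counted from the first base of that unit, Gm1821 differs from Ubb by C27T, T43C and T75C, and Gm8797 by T43C, G45A, C69T, T75C, A150G and T165C. From the start of the unit to the end that the 3 transcripts share, Gm1821 is identical to Ubb at 380 of 384 aligned bases (99.0%) and Gm8797 at 377 of 384 (98.2%). After the unit the only difference in that stretch is the length of a run of A, which begins at base 346 and lies 33 bases before the shared end. The run is shown in capitals within 30 bases, since it is the only mark that a read near the shared end could carry.
Ubb run: gaacctctgttAAAAAAtgttaataaaggt
Gm1821 and Gm8797 run: gaacctctgttAAAAAtgttaataaaggtt
The run has 6 A in the reference Ubb and 5 in both others. Of 310 windows of 75 bases in this part of Ubb, 201 were also found in Gm1821, 111 in Gm8797 and 109 in neither, and 33 spanned the run. All 309 windows of Gm1821 were found in at least 1 of the other genes, so in this reference no read of that stretch belongs to Gm1821 alone. Gm1821 runs on for 36 bases beyond the shared end, and with these, 27 of 345 windows from the start of its last unit were found in no other annotated gene. Of the 856 distinct stretches of all Gm1821 transcripts, 185 were found in no other gene. A count does not say where in the transcript its read lay, so reads of the shared stretch can stand in the row of any of these genes.

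The 12 peritoneal libraries held 15532373 to 19417581 counts each, and the 36 libraries grown from bone marrow 3081707 to 4645148. All 7 macrophage markers on the list were counted in every population, with a summed level from 5883 to 48627 CPM (counts relative to the scaled library total) in bone marrow-derived libraries and from 23719 to 34708 CPM in peritoneal ones. This sum was lower in KO than in WT libraries of M1 (12138 to 25100 against 43458 to 48627 CPM) and M2 (5883 to 19043 against 23355 to 30864 CPM), without overlap, and overlapped in M0 (17889 to 38877 against 30133 to 40646 CPM). In KO_M0 vehicle libraries most of it was Lyz2, at 25097, 27936 and 28420 CPM of sums from 32191 to 38877 CPM. The sum therefore says little about the other markers there. The M1 markers Nos2, Il12b and Cxcl9 summed to 11.8 to 17.3 CPM in WT_M1 and overlapped WT_M2, at 0.535 to 18.1 CPM. In KO they summed to 32.9 to 76.2 CPM in M1 and 4.05 to 9.54 CPM in M2. The M2 markers Arg1, Retnla and Chil3 summed to 3844 to 8862 CPM in WT_M2 and 51.5 to 108 CPM in WT_M1. In KO these were 4118 to 13447 and 75.4 to 223 CPM. A list of 5 epithelial or ID8 markers summed to between 154 and 200 CPM in ascites libraries and to at most 3.38 CPM elsewhere, and 4 neutrophil markers reached at most 77.9 CPM, in KO_M1. Their part in the results below was not tested. The p53 target Cdkn1a, which encodes a cell cycle inhibitor, ranged from 554 to 1117 CPM over 18 WT and from 34.0 to 291 CPM over 18 KO libraries, and Trp53 itself from 4.78 to 13.2 and from 2.70 to 9.10 CPM, a check only if the deletion covers the 3′ end. In bulk samples, fewer cells of a type and less RNA per cell cannot be told apart. Reads of shared stretches can stand in the row of any similar gene, so counts in different rows are not compared as transcript levels.

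Ubb counts were far lower in KO than in WT libraries at every polarization, with or without the compound. Among vehicle libraries, Ubb stood at 659, 630 and 589 CPM in WT_M0 and at 131, 53.5 and 4.86 CPM in KO_M0. It stood at 1056, 1054 and 1072 CPM in WT_M1 against 26.0, 248 and 63.0 CPM in KO_M1. In M2 the WT libraries had 1001, 708 and 628 CPM and the KO libraries 195, 126 and 275 CPM. The KO libraries were below every WT library, and they scattered: the highest of all 18 KO libraries had 56.5 times the Ubb level of the lowest, against 1.91 times over the 18 WT libraries. As log2 ratios of group means, KO over WT was -3.31 in M0, -3.24 in M1 and -1.97 in M2 with vehicle, and -3.26, -2.44 and -2.32 with AP-3-84. WT and KO libraries did not overlap in 6 of 6 comparisons with KO lower, which was so for 34 of 11779 genes tested (0.289%). The rule that chose Ubb used this contrast, so nothing is read from that share.

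Gm1821 was counted in 17 of 18 KO libraries and almost nowhere else. Over the 18 KO libraries it received 3019 counts. Over the 18 WT libraries it received 1 count, in 1 WT_M1 library with AP-3-84, and over the 12 peritoneal libraries 0 counts, which allows a level of up to 0.015 CPM there (3 counts, counting error only). The KO vehicle libraries had 21.7, 32.0 and 21.1 CPM in M0, 80.6, 23.0 and 65.5 CPM in M1 and 38.4, 47.4 and 9.65 CPM in M2. With AP-3-84 they had 52.7, 50.0 and 42.5 CPM in M0, 49.6, 79.0 and 60.5 CPM in M1 and 59.1, 0 and 35.9 CPM in M2. The KO_M2 library with no Gm1821 counts had 835 Ubb counts. Against a floor of 3 counts over the WT group, the KO vehicle groups were at least 103-fold higher in M0, 208-fold in M1 and 108-fold in M2.

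The third similar gene, Gm8797, had more counts in KO where Ubb had fewer, and by far larger numbers than Gm1821. Over 18 libraries each, Ubb had 54306 counts in WT and 9391 in KO, while Gm8797 had 46106 in WT and 94425 in KO. Gm8797 stood at 455, 391 and 495 CPM in WT_M0 vehicle libraries and at 901, 1098 and 1023 CPM in KO_M0. It stood at 773, 836 and 771 CPM in WT_M1 against 2682, 1461 and 1965 CPM in KO_M1. In M2 it stood at 855, 659 and 813 CPM in WT and at 1093, 1147 and 1094 CPM in KO. KO was higher than WT without overlap in 6 of 6 comparisons, which was so for 11 of 11779 genes (0.0934%), with a log2 ratio between 0.52 and 1.36. Gm8797 was picked by its sequence. Because reads of stretches it shares with Ubb can stand in either row, its counts may depend on those of Ubb. This too is therefore a description.

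Summed over Ubb, Gm1821 and Gm8797, the counts differed little between genotypes. The sum was 1114, 1022 and 1084 CPM in WT_M0 vehicle libraries and 1053, 1184 and 1049 CPM in KO_M0, a log2 ratio of 0.03. In M1 it was 1829, 1890 and 1843 CPM in WT and 2789, 1732 and 2094 CPM in KO, a log2 ratio of 0.25. In M2 it was 1856, 1367 and 1440 CPM in WT and 1326, 1321 and 1379 CPM in KO, a log2 ratio of -0.21. With AP-3-84 the log2 ratios were 0.08, -0.08 and -0.28 in M0, M1 and M2. WT and KO libraries overlapped in 5 of 6 comparisons, the exception being M2 with AP-3-84 (KO lower without overlap for 16.9% of genes), where KO had 1370, 1200 and 1050 CPM and WT 1479, 1402 and 1505 CPM. Adding Gm1821 alone to Ubb left the gap in place, with log2 ratios of -2.83, -2.65 and -1.76 in vehicle M0, M1 and M2.

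**Figure D1:**
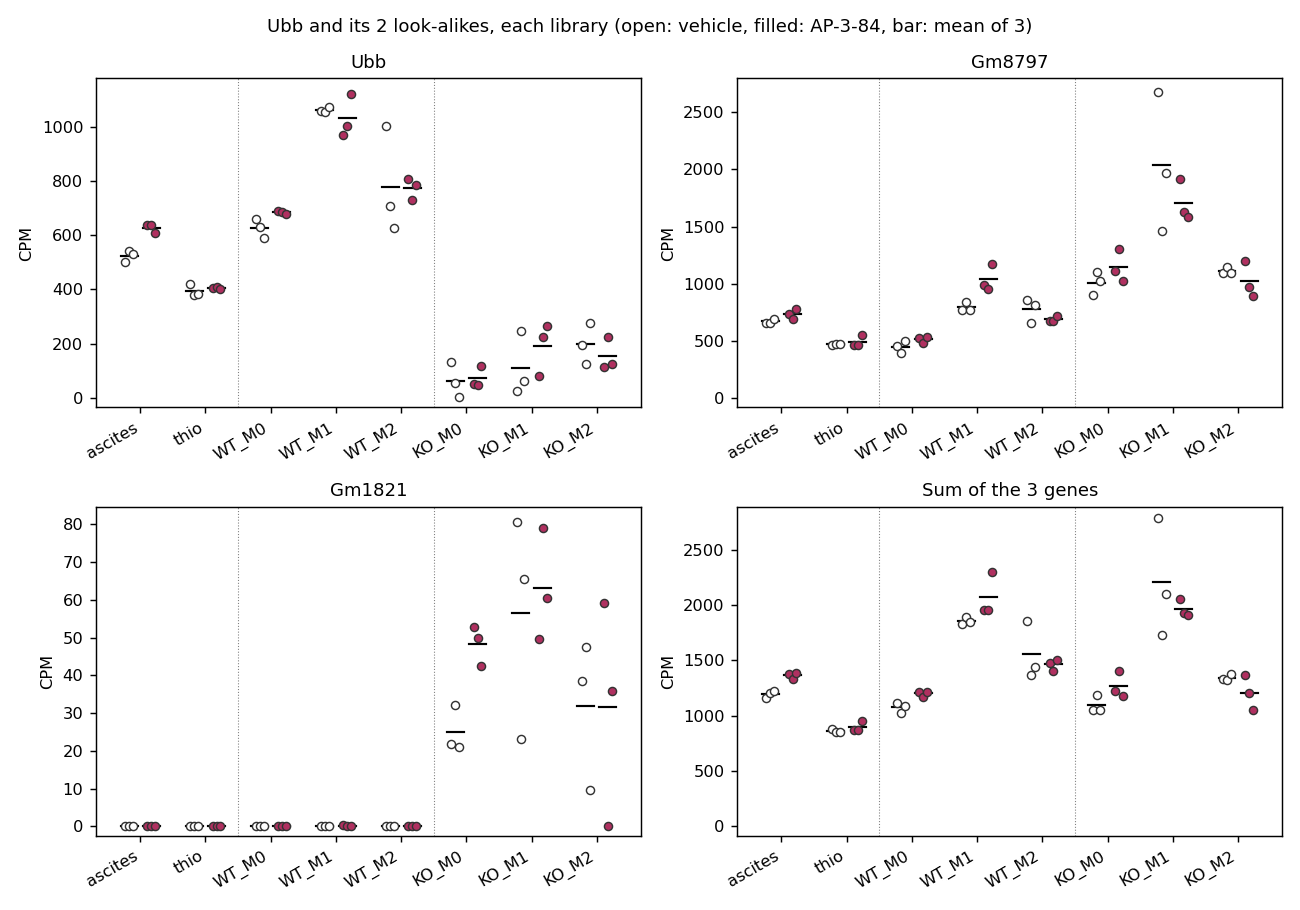
Level in CPM (y axis) of Ubb, Gm8797, Gm1821 and their sum in each of 48 libraries, by population (x axis); open circles are vehicle, filled circles AP-3-84, bars the mean of 3 libraries. KO libraries lie at 4.86 to 275 CPM for Ubb and at 888 to 2682 CPM for Gm8797, while their summed level, 1049 to 2789 CPM, spans that of the WT libraries, 1022 to 2298 CPM.

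As a share of the counts of the 3 genes, Ubb took 43.6 to 61.7% (median 54.5%) in the 18 WT libraries, 42.1 to 48% in the 12 peritoneal libraries and 0.463 to 19.9% (median 9.7%) in the 18 KO libraries. Gm1821 took 0 to 4.32% in KO. The lowest Ubb share was in a KO_M0 vehicle library, with 18 of 3884 counts (0.463%, 95% Wilson interval 0.293 to 0.731%). Another library of that group had 499 of 4026 counts (12.4%, interval 11.4 to 13.4%). Intervals cover counting error only, and libraries of 1 KO group differed by far more than that. Of the WT groups, WT_M2 vehicle had the widest span, from 43.6 to 53.9%.

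**Figure D2:**
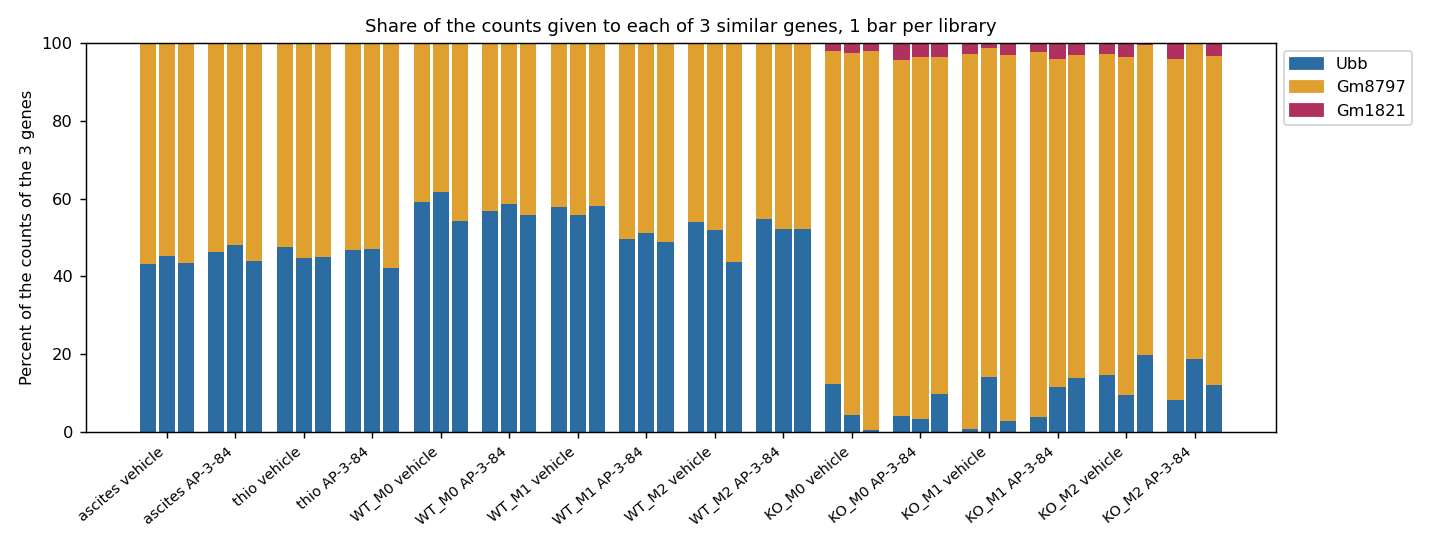
Percent (y axis) of the counts of Ubb, Gm8797 and Gm1821 together that stood in each gene's row, 1 bar per library, in groups of 3 (x axis). Ubb held 42.1 to 61.7% in peritoneal and WT libraries and at most 19.9% in KO libraries, where Gm1821 held up to 4.32%.

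Within KO, the share of Gm1821 in the counts of Ubb and Gm1821 together ranged from 0 (0 of 835 counts, which allows up to 0.359%) to 81.2% (78 of 96, interval 72.3 to 87.8%). It exceeded the share of Ubb in 5 of 18 libraries. The mean was 43.6% in M0, 36.2% in M1 and 17.2% in M2, 6 libraries each, with groups that overlapped. The M2 mean differed from that of M0 by -26.4 percentage points, and exact two-sided permutation of 6 against 6 libraries gave p = 0.0325, or 0.13 adjusted over 4 tests. M1 differed from M0 by -7.4 points (exact permutation p = 0.569, adjusted 0.611) and from M2 by 19 points (exact permutation p = 0.126, adjusted 0.251). AP-3-84 libraries had a mean of 29.7% against 35% with vehicle (exact permutation within polarization, p = 0.611, adjusted 0.611). None of the 4 tests passed after adjustment. Without the libraries numbered 3 the compound's difference changed sign (3.4 points), and without those numbered 2 that of M1 and M0 did (2.48 points).

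Whether a variant of the knockout chromosome moves reads between these genes was not tested, because the files hold counts and no reads or genotypes. Ubb and Trp53 lie 7.03 Mb apart on chromosome 11, and Rps27a lies 40034513 bases from Trp53. Deletion of p53 and alleles carried along with it cannot be told apart in this design. What the counts show is a sum of the 3 rows that overlapped between genotypes in 5 of 6 comparisons and a division of that sum that did not.

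Between populations the transcript level of the Ubb family moved with polarization. In bone marrow-derived cells the sum of the 3 rows passed tests that the Ubb row, with its wider error in the shared fit, did not. In WT M1 against M0 their log2 fold changes were close, at 0.79 and 0.76. Ubb alone passed the test in 2 of 15 comparisons within a genotype or source. With vehicle, it was higher in ascites than in thio cells, at 501, 542 and 529 against 419, 380 and 384 CPM, by 0.41 on the log2 scale (SE 0.0562, adjusted p = 1.46e-05 by edgeR, where 33.7% of genes passed). All 3 ascites libraries were above all 3 thio libraries, and the sum of the rows rose too (0.47, SE 0.053, adjusted p = 1.56e-06).

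In WT cells Ubb stood higher in M1 than in M0 vehicle libraries, 1056, 1054 and 1072 against 659, 630 and 589 CPM, without overlap. The log2 fold change was 0.76 but did not pass (SE 0.647, adjusted p = 0.483, where 15.5% of genes passed), with 1 spread estimated over all 12 bone marrow groups, KO included. With the spread from these 2 groups alone it passed, at 0.74 (SE 0.0898, adjusted p = 3.86e-05). The sum of the 3 rows, an analysis added after the data were seen, rose by 0.79 (SE 0.134, adjusted p = 0.000122). In WT_M2 against WT_M0 the sum rose by 0.53 (SE 0.134, adjusted p = 0.00361, where 23.4% of genes passed), and the Ubb row alone differed by 0.32 (SE 0.644, adjusted p = 0.767). WT_M1 against WT_M2 gave 0.25 for the sum (SE 0.134, adjusted p = 0.171) and 0.44 for Ubb (adjusted p = 0.672).

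In KO cells the sum of the 3 rows passed in 2 of the 3 comparisons and the Ubb row in none. The sum rose by 1.01 in M1 against M0 (SE 0.135, adjusted p = 5.69e-07, where 44.5% of genes passed) and by 0.72 in M1 against M2 (SE 0.134, adjusted p = 0.000124, where 25.4% passed). The Ubb row alone gave 0.83 (SE 0.671, adjusted p = 0.328) and -0.82 (SE 0.659, adjusted p = 0.391), the second of opposite sign to the sum. For M2 against M0 the Ubb row gave 1.65 (SE 0.678, adjusted p = 0.0567, where 38% passed) and the sum 0.29 (SE 0.134, adjusted p = 0.0811). Single KO libraries decided these Ubb values. Without KO_M0 vehicle replicate 1, M1 against M0 gave 1.97 (adjusted p = 0.0396) and M2 against M0 2.77 (adjusted p = 0.00753). Without KO_M1 vehicle replicate 2, M1 against M0 gave -0.48 (adjusted p = 0.596) and M1 against M2 -2.12 (adjusted p = 0.0267).

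With AP-3-84, Ubb rose in ascites cells and was called in no other population. In ascites, the 3 treated libraries had 638, 638 and 608 CPM against 501, 542 and 529 CPM with vehicle, without overlap. The rise was 0.26 on the log2 scale (SE 0.056, adjusted p = 0.0184, where 1.79% of genes passed). The call was lost without ascites vehicle replicate 1 or 3 or AP-3-84 replicate 1 or 2 (0.23 to 0.27, edgeR adjusted p = 0.0659 to 0.173). It was also lost with other scaling (adjusted p = 0.069 and 0.0703), with the sum of the 3 rows (0.19, adjusted p = 0.0914) and in a fit of the 6 ascites libraries alone (0.26, adjusted p = 0.131). In thio cells, treated libraries had 405, 408 and 400 CPM against 419, 380 and 384 CPM, a difference of 0.04 (SE 0.0562, adjusted p = 0.825, where 4.32% passed), or from -0.08 to 0.15 at 2 SE. The difference between the ascites and thio responses was 0.22 (SE 0.0793, adjusted p = 0.487, where 0.118% passed).

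In the 6 bone marrow-derived populations the compound's effect on the Ubb row lay between -0.35 in KO_M2 and 0.76 in KO_M1, with adjusted p from 0.878 to 1. The share of all genes that passed was 0.144% in WT_M0, 0.017% in WT_M1, 1.21% in WT_M2, 20.7% in KO_M0, 0% in KO_M1 and 0.0509% in KO_M2. In KO_M1 edgeR and DESeq2 each called 0 genes, and 206 had an unadjusted edgeR p under 0.05. Summing the 3 rows narrowed the error to an SE of 0.133 or 0.134, and the values then lay between -0.17 in KO_M1 and 0.21 in KO_M0, with adjusted p from 0.278 to 1. For KO_M0, leaving out vehicle replicate 3 or AP-3-84 replicate 3 turned the Ubb value to -0.36 or -0.35. At 2 SE the sum in KO_M0 spanned -0.06 to 0.48. The response in KO minus that in WT was not called in M0, M1 or M2, at 0.05, 0.8 and -0.34 for the Ubb row (adjusted p = 0.983, 0.86 and 0.916, where 17%, 0.00849% and 1.77% of genes passed) and 0.05, -0.33 and -0.06 for the sum (adjusted p = 0.895, 0.737 and 0.923).

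**Figure D3:**
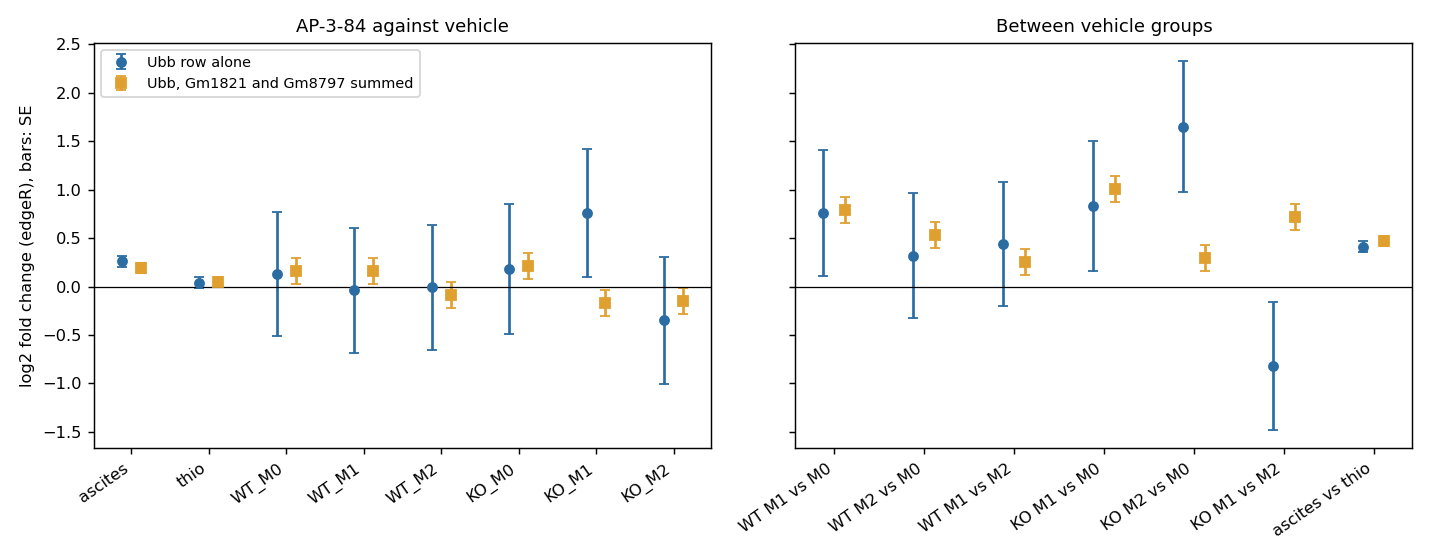
Log2 fold change from edgeR (y axis, bars 1 SE) of the Ubb row alone (circles) and of Ubb, Gm1821 and Gm8797 summed (squares), for AP-3-84 against vehicle in 8 populations (left) and between vehicle groups (right). The sum has an SE near 0.134 in bone marrow-derived cells against 0.643 to 0.678 for the Ubb row, and in KO M1 against M2 the values have opposite signs, 0.72 and -0.82.

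Gm1821 passed no test within KO, which held all but 1 of its counts. In KO_M0 it stood at 52.7, 50.0 and 42.5 CPM with AP-3-84 and at 21.7, 32.0 and 21.1 CPM with vehicle, without overlap. AP-3-84 libraries were higher without overlap for 15.4% of genes there. The log2 fold change was 0.96 (SE 0.835, edgeR adjusted p = 0.451, where 20.7% of genes passed). With the spread of these 6 libraries alone it passed (0.96, SE 0.222, adjusted p = 0.0353). In KO_M1 and KO_M2 the compound gave 0.16 and -0.02 (adjusted p = 1 and 0.997). Between KO vehicle groups, M1 against M0 gave 1.18 (SE 0.834, adjusted p = 0.269), M2 against M0 0.36 (adjusted p = 0.771) and M1 against M2 0.82 (adjusted p = 0.508). Gm8797 in the same libraries rose by 1.02 in KO M1 against M0 (SE 0.157, adjusted p = 4.87e-06) and was not called with the compound in any population.

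Rps27a, which encodes ubiquitin joined to a protein of the small ribosomal subunit, lies at chr11:29545846-29548109 on the minus strand. Its level followed polarization and was lowest in M1. Vehicle libraries had 1193, 1183 and 1165 CPM in WT_M0, 1069, 1105 and 1061 CPM in WT_M1 and 1448, 1608 and 1522 CPM in WT_M2. In KO they had 1138, 1480 and 1068 CPM in M0, 668, 994 and 766 CPM in M1 and 1293, 1676 and 1501 CPM in M2. All M1 libraries lay below all M0 and M2 libraries of their genotype. By edgeR, Rps27a fell by 0.50 in WT_M1 against WT_M2 (SE 0.151, adjusted p = 0.0128, where 25.5% of genes passed). It fell by 0.60 in KO_M1 against KO_M0 (SE 0.152, adjusted p = 0.00172) and by 0.88 in KO_M1 against KO_M2 (SE 0.152, adjusted p = 4.34e-05). WT_M1 against WT_M0 gave -0.13 (adjusted p = 0.623), WT_M2 against WT_M0 0.37 (adjusted p = 0.0732) and KO_M2 against KO_M0 0.28 (adjusted p = 0.146).

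The Rps27a counts of KO and WT overlapped in 4 of 6 comparisons. The exceptions were M1 with vehicle and M1 with AP-3-84, where KO was lower, by log2 ratios of -0.41 and -0.35. KO libraries lay below WT without overlap for 16.7% and 18.2% of genes there. Over 18 libraries each, Rps27a had 84152 counts in WT and 83705 in KO.

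Rps27a has look-alikes too. Of 9 genes that share a 75-base stretch with it, Gm8430, a processed pseudogene at chr6:122456904-122457374 on the plus strand, took 72641 counts in WT and 66849 in KO, and shares 326 of the 2056 distinct stretches of Rps27a. The pseudogene Rps27a-ps2 took 2081 and 1951 counts, and the others few. As a share of the counts of Rps27a and Gm8430 together, Rps27a held 42.1 to 71.6% in WT, 39.5 to 78.5% in KO and 44.0 to 62.6% in peritoneal libraries. Gm8430 varied between replicates: in KO_M0 vehicle libraries it had 885, 608 and 292 CPM where Rps27a had 1138, 1480 and 1068 CPM. With all rows of the family summed, the fall in WT_M1 against WT_M2 was no longer called (-0.25, SE 0.183, adjusted p = 0.353). Between genotypes the summed family overlapped in 3 of 6 comparisons. KO was lower in vehicle M0, where the log2 ratio went from 0.06 for Rps27a alone to -0.42 (KO lower for 22.9% of genes), and in vehicle M1 (-0.88). It was higher in M2 with AP-3-84 (0.29, KO higher for 15.7% of genes). Within genotypes, KO_M2 against KO_M0 rose by 0.78 (SE 0.184, adjusted p = 0.00122), and KO_M1 stayed lower than KO_M0 (-0.53, adjusted p = 0.0196) and KO_M2 (-1.3, adjusted p = 2.66e-06).

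**Figure D4:**
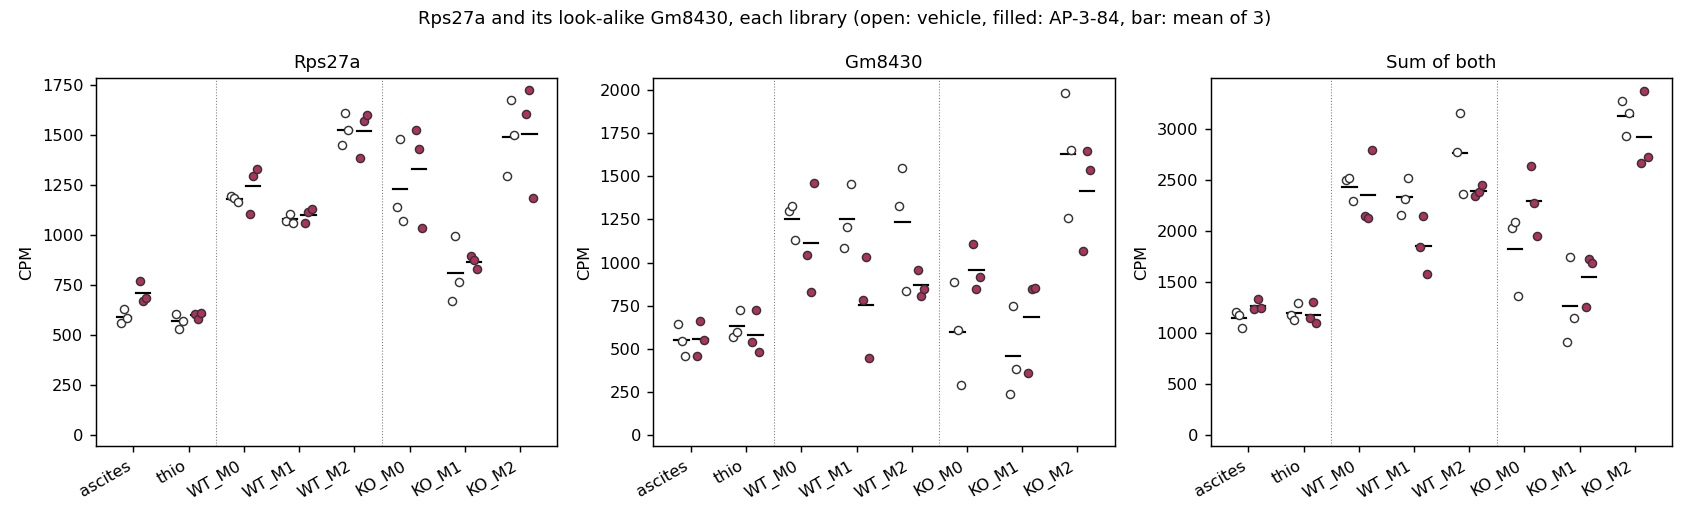
Level in CPM (y axis) of Rps27a, of its look-alike Gm8430 and of both together in each of 48 libraries by population (x axis); open circles are vehicle, filled circles AP-3-84, bars the mean of 3 libraries. Rps27a vehicle libraries lie at 668 to 994 CPM in KO_M1, below the 1068 to 1480 CPM of KO_M0, and Gm8430 scatters more between replicates, for example 292 to 885 CPM in KO_M0 with vehicle.

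AP-3-84 changed Rps27a in none of the 8 populations by edgeR. The largest difference was in ascites, with 772, 670 and 686 CPM against 561, 631 and 586 CPM and no overlap, a log2 fold change of 0.26 (SE 0.0688, unadjusted p = 0.00157, adjusted p = 0.0721), which was called only when genes with low counts were kept (adjusted p = 0.0101). In the other 7 populations the values lay between -0.01 and 0.12, with adjusted p from 0.631 to 1. Ascites against thio vehicle cells gave 0.06 (SE 0.0688, adjusted p = 0.595).

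Other ribosomal protein genes moved with polarization in the same direction as Rps27a. Of 20 on the list, 18 fell and 0 rose in WT_M1 against WT_M2, with a median log2 fold change of -0.55 against 0 over all genes, of which 13.7% fell. In KO_M1 against KO_M0, 15 fell and 0 rose (median -0.53 against -0.01, where 21.8% of genes fell), and in KO_M1 against KO_M2, 20 fell (median -0.79 against -0.02, where 13% fell). In WT_M1 against WT_M0, 4 fell and 0 rose (median -0.24 against 0, where 7.5% fell), which became 17 with total counts as scale and 1 or 2 without WT_M0 replicate 1 or 3 or WT_M1 replicate 1 or 2. The genes whose pattern over the 12 bone marrow-derived group means was most like that of Rps27a were Rps7 (Pearson r = 0.981), Rps15a (0.98), Rpl34, Rps23 and Rps4x (each 0.976), all of which encode ribosomal proteins, out of 8427 genes compared. These values describe group means that share libraries, so no p is given.

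For Ubb the most alike were Ogfod3 (r = 0.963), Ccng1 (0.928), Adora2b (0.925), Cdkn1a (0.92) and Qpctl (0.917), over the same 12 means. The genotype contrast that chose Ubb and Gm1821 shapes these means. Genes that differ in the same way between genotypes therefore rank high, and nothing is read from the ranking. Adora2b lies 0.302 Mb, Ccng1 21.8 Mb and Ogfod3 58.6 Mb from the start of Ubb on chromosome 11. The share of the 8427 compared genes on that chromosome was not determined. Ccng1, a p53 target that encodes a cyclin, spanned 25.1 to 43.8 CPM in KO and 74.6 to 240 CPM in WT. The 18 KO libraries differed by at most 1.74-fold for Ccng1, 8.57-fold for Cdkn1a and 56.5-fold for Ubb. The lowest Ubb level rests on 1 library with 18 counts. For Gm1821 they were Arl14ep (0.912), Ide (0.904), Atrip (0.889), Pex3 (0.883) and Enah (0.863), none on chromosome 14. Ordered by mean Ubb level, the WT groups ran from 1060 CPM in M1 to 626 CPM in M0 with vehicle, followed by all KO groups from 199 CPM in M2 to 62.9 CPM in M0, and within KO every group overlapped its neighbour. Among WT groups M1 and M2 overlapped theirs. M0 with AP-3-84 (685 CPM) lay below M2 with AP-3-84 and above M0 with vehicle without overlap, but overlapped M2 with vehicle, which spans 628 to 1001 CPM.

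The genes that load, remove and read ubiquitin changed little with AP-3-84 outside KO_M0. On a list of 33 such genes (2 activating enzymes, 10 conjugating enzymes, 8 deubiquitinases, 6 receptors and shuttles, 7 ubiquitin-like modifiers), 1 rose in ascites (where 1.69% of genes rose), 2 in thio (2.51%), 1 in WT_M0 and 0 fell in any of the 8 populations. The gene Sqstm1, whose product p62 carries ubiquitinated cargo to autophagosomes, rose in all 3, by 0.88 in ascites (SE 0.0851, adjusted p = 7.71e-06), 0.90 in thio (SE 0.085, adjusted p = 7.98e-06) and 0.88 in WT_M0 (SE 0.19, adjusted p = 0.0422). Rad23b, which encodes a shuttle to the proteasome, rose by 0.37 in thio (SE 0.081, adjusted p = 0.0127). The Sqstm1 call in WT_M0 was lost without any 1 of the 6 libraries (0.80 to 0.94, adjusted p = 0.0604 to 0.326), and the Rad23b call without thio vehicle replicate 1 or 2 or AP-3-84 replicate 3 (0.31 to 0.35, adjusted p = 0.0583 to 0.0922).

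In KO_M0 11 of the 33 rose and 0 fell (median 0.33 against -0.03 over all genes, where 12.1% rose), and 5 of the 11 were deubiquitinases. Uchl1, a deubiquitinase that binds free ubiquitin, rose by 2.48 (SE 0.408, adjusted p = 0.000117) and Rad23b by 0.70 (SE 0.149, adjusted p = 0.00105). The count was 17 in a fit of all 48 libraries, 2 when only the 6 KO_M0 libraries were fitted, 7 without vehicle replicate 1 and 6 without AP-3-84 replicate 2. Macrophage markers moved in the same libraries: of 7, 3 were higher with the compound without overlap (15.4% of all genes) and 3 lower (16.7%). Adgre1, which encodes F4/80, had 484, 503 and 465 CPM with vehicle and 2403, 1464 and 656 CPM with AP-3-84, and Mertk, a receptor for apoptotic cells, had 257, 308 and 337 against 60.5, 44.3 and 141 CPM. The summed level of the markers was 32191 to 38877 CPM with vehicle and 17889 to 38719 CPM with AP-3-84, and their part in the result was not tested. No gene of the list was called with the compound in WT_M1, WT_M2, KO_M1 or KO_M2.

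With polarization, genes of the list were called in both genotypes, and the difference between genotypes was not tested. In M1 against M0, 5 rose and 1 fell in WT (median 0.14 against 0 over all genes, of which 8.0% rose and 7.5% fell). In KO, 14 rose and 5 fell (median 0.33 against -0.01, where 22.8% rose and 21.8% fell). In WT the counts depended on scaling and on single libraries: with total counts 1 rose and 6 fell, and without WT_M0 vehicle replicate 3 none did. The leading calls in WT were Ube2v1, a partner of the enzyme that makes K63-type chains (0.67, SE 0.177, adjusted p = 0.00905), and Isg15, an interferon-induced modifier (2.32, SE 0.637, adjusted p = 0.0138). In KO they were Fau, a ubiquitin-like protein joined to a ribosomal protein (-1.02, SE 0.128, adjusted p = 2.38e-07), and Uchl1 (3.46, SE 0.417, adjusted p = 3.74e-07). In M2 against M0, 4 rose and 4 fell in WT (0 and 7 with total counts, and 0 rose without WT_M0 replicate 2 or WT_M2 replicate 1), where 12.7% of genes rose and 10.7% fell, led by the deubiquitinase Usp7 (-0.58, SE 0.142, adjusted p = 0.00289) and the conjugating enzyme Ube2k (-0.54, SE 0.143, adjusted p = 0.00587, or 0.0675 without WT_M2 replicate 3). In KO, 12 rose and 2 fell, where 20.1% of genes rose and 17.9% fell (6 rose without KO_M2 replicate 3 and 7 without KO_M0 replicate 2), led by Uchl1 (2.21, SE 0.407, adjusted p = 0.000119) and Rad23b (0.63, SE 0.149, adjusted p = 0.0013).

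Against M2, M1 cells of WT had 4 genes of the list higher and 2 lower (0 higher without WT_M2 replicate 3), where 11.9% of genes were higher and 13.7% lower. Sqstm1 led the lower ones (-1.22, SE 0.192, adjusted p = 9.61e-06) and Isg15 the higher ones (2.2, SE 0.637, adjusted p = 0.0114, or 0.0579 and 0.0608 without WT_M2 replicate 2 or 3). In KO, 3 were higher and 2 lower, where 12.4% and 13% of genes were, with Fau at -0.63 (SE 0.127, adjusted p = 0.000354) and Sqstm1 at 0.73 (SE 0.19, adjusted p = 0.00413, or 0.0512 without KO_M1 replicate 1), the opposite sign to WT. Ascites cells had 8 higher and 7 lower than thio cells, where 20.3% of genes were higher and 13.4% lower, led by Isg15 (3.78, SE 0.143, adjusted p = 9.23e-11) and Uchl1 (2.19, SE 0.268, adjusted p = 4.02e-06).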

How the data were processed

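The deposited table holds 1 row per Ensembl gene ID and 48 columns of whole-number counts, which the authors made from 3′ QuantSeq FWD libraries of 100 ng RNA, read as single 75-base reads per the labels' protocols. RSEM, Bowtie2 and DESeq2 are named, without versions or roles, in the submitters' processing notes. RSEM divides reads between similar transcripts and estimates counts, so these whole numbers may be rounded estimates. Build and annotation of the counting: not given in the sources used here. Gene IDs were looked up in GENCODE M21 (GRCm38) for coordinates and transcript sequences.

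Tests across genes used glmQLFTest from edgeR 4.0.16 and R 4.3.3 (quasi-likelihood, filterByExpr, TMM scaling, 1 mean per group, robust, two-sided), with 16955 genes in 12 peritoneal and 11779 in 36 bone marrow-derived libraries. The fit was tested on simulated data. A called gene has a Benjamini-Hochberg adjusted p below 0.05 within its comparison. CPM use TMM-scaled totals. Similar genes are those sharing at least 1 stretch of 75 bases in annotated transcripts. The members and lists were chosen with earlier results of these data known. Named were the members, genes sharing stretches with a member, the 2 list genes of lowest p called in each comparison, the 5 genes most like each member (log2 CPM of at least 3, pseudocount 0.5 CPM) and Trp53, Cdkn1a and Ccng1. Alternatives were median-ratio and total-count scaling, no filter, DESeq2 1.42.0 (Wald), only the groups compared, 1 fit of all 48 libraries, a replicate block, summed rows and leaving out each library. Some genes of the naming rule are not reported here.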

Additional observations from a re-analysis of the deposited data

Results flagged for a closer look

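In unpolarized bone marrow-derived macrophages, the response to AP-3-84 differed between KO and WT for 2 of the ubiquitin pathway genes that the naming rule selects. The log2 response in KO minus that in WT was 1.0 for Otulin, which encodes a deubiquitinase of linear chains (SE 0.213, adjusted p = 0.00182 by edgeR), and 2.45 for Uchl1 (SE 0.541, adjusted p = 0.0031). Over all genes, 17% passed this test of the difference. The same KO_M0 vehicle libraries enter this difference, the KO_M0 response and the KO comparisons of M1 and M2 with M0. Otulin, Uchl1, Uchl5 and Usp14 were called higher in each of these, so the calls are not independent. Of the 33 pathway genes 7 were higher in KO and 0 lower, 4 without KO_M0 AP-3-84 replicate 2 and 15 without replicate 3 of that group.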

How the results depend on the processing

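Of 799 values of the 60 member results under alternatives, 711 kept direction and call, 12 lost the call, 23 gained it, 47 changed sign and 6 moved beyond the spread. Summing look-alike rows, chosen after the data were seen, gave KO over WT log2 ratios of -0.42, -0.88 and 0.18 for Rps27a in vehicle M0, M1 and M2, and of 0.03, 0.25 and -0.21 for Ubb and Gm1821 once Gm8797 was added. It turned the AP-3-84 value of Rps27a to -0.02 in thio, -0.05 in WT_M0, -0.32 in WT_M1 and -0.10 in KO_M2, and ascites against thio to -0.06. It turned that of Ubb to 0.16 in WT_M1, -0.17 in KO_M1 and -0.33 for KO minus WT in M1, and KO M1 against M2 to 0.72. It ended the calls of Ubb with AP-3-84 in ascites (0.19) and Rps27a in WT M1 against M2 (-0.25), and made calls of Ubb in WT M1 against M0 (0.79), WT M2 against M0 (0.53) and KO M1 against M0 (1.01) and of Rps27a in KO M2 against M0 (0.78). With Gm1821 alone added, Ubb in KO M2 against M0 was called at 1.39.

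Total counts as scale turned Ubb and Rps27a in WT_M2 with AP-3-84 to 0.11 and 0.10, Rps27a in KO_M2 to -0.05, KO minus WT in M0 to -0.01 and -0.03, and Rps27a in M2 to -0.15. They called Rps27a in WT M1 against M0 (-0.43). Ubb with AP-3-84 in ascites lost its call with total counts (0.21), median-ratio factors (0.25), only the groups compared (0.26) and all 48 libraries (0.24), where ascites against thio did too (0.37). With low genes kept, calls were gained by Ubb in KO_M1 with AP-3-84 (0.77), WT M1 against M0 (0.74), KO M1 against M0 (0.85), KO M2 against M0 (1.65) and KO M1 against M2 (-0.80), by Gm1821 in KO_M0 with AP-3-84 (0.98), KO M1 against M0 (1.21) and M1 against M2 (0.85), and by Rps27a in ascites with AP-3-84 (0.25). Only the groups compared gave calls of Ubb in WT M1 against M0 (0.74) and Gm1821 in KO_M0 with AP-3-84 (0.96), and in KO M2 against M0 Ubb was called by DESeq2 (1.65) and with all 48 libraries (1.69). The cause was not tested.

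Without all libraries of 1 replicate number, the Gm1821 share differences ran from -10.6 to 3.4 points for AP-3-84 and from -23.2 to 2.48 for M1 minus M0. Without 1 library, with AP-3-84, Ubb ran from 0.23 to 0.28 in ascites, -0.14 to 0.20 in WT_M2 and -0.36 to 1.31 in KO_M0, Gm1821 from -0.21 to 0.50 in KO_M1 and -0.80 to 0.59 in KO_M2, and Rps27a from -0.05 to 0.05 in WT_M2, -0.02 to 0.28 in KO_M1 and -0.08 to 0.16 in KO_M2. Between KO groups, Ubb ran from -0.48 to 1.97 in M1 against M0, 1.09 to 2.77 in M2 against M0 and -2.12 to -0.36 in M1 against M2, and in M2 against M0 Gm1821 from -0.05 to 0.79 and Rps27a from 0.18 to 0.42. For KO minus WT, Ubb ran from -0.49 to 1.19 in M0, and Rps27a from -0.06 to 0.20 in M0, -0.06 to 0.23 in M1 and -0.07 to 0.16 in M2.

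The labels number replicates alike in all groups, but of 24 same-numbered vehicle and AP-3-84 pairs only 4 had deviations correlated above 0.1 (-0.327 to 0.375), so the numbers were not taken to pair libraries. With a replicate block, Ubb in ascites with AP-3-84 was 0.26 with adjusted p = 0.0503 by edgeR, the only member call that it changed. The counts of all genes called that it moved by over 1.5 times were those for AP-3-84 in KO_M2 (from 6 to 2), ascites minus thio (from 20 to 6) and KO minus WT in M1 (from 1 to 0). Bone marrow-derived libraries were shallower than peritoneal ones, and their members' values have wider errors in the main fit. With only the groups compared, the SE of Ubb in WT M1 against M0 went from 0.647 to 0.0898. The part of depth in the errors was not tested.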

Other observations

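Across libraries of 1 genotype, the Ubb share of the counts of Ubb and its look-alikes was lower where the share of Rps27a against Gm8430 was higher. These relations were chosen after the data were seen, and their p-values are from 100000 permutations, adjusted over 4 relations, of which 2 are given. In the 18 KO libraries the Ubb share of the 3-gene counts and the Rps27a share of the Rps27a and Gm8430 counts had Pearson r = -0.837 (permutation p = 4e-05, adjusted 8e-05) and Spearman rho = -0.878 (permutation p = 1e-05, the smallest these permutations can give, adjusted 2e-05). Without the 2 libraries farthest from the median, r was -0.809. Within 6 libraries each, it was -0.783 in M0, -0.921 in M1 and -0.485 in M2. Mean shares differ between polarizations and treatments, so the pooled r and rho also hold differences between these groups. In KO M0 and M2 the mean Ubb share was 5.8% and 13.9%, and the mean Rps27a share 63.2% and 49.8%.

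In the 18 WT libraries, whose Ubb shares span a narrower range, r was -0.654 (permutation p = 0.0029, adjusted 0.00387) and rho -0.669 (permutation p = 0.00324, adjusted 0.00432), or -0.601 without the 2 farthest. Within polarization r was -0.0767, -0.841 and -0.395 in M0, M1 and M2, so in WT it did not hold within M0 and was weak within M2. In both genotypes the values within a polarization rest on 6 libraries and were not tested. What these measures share beyond the library, such as its preparation or depth, was not tested.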
